A study of Mus musculus with 6 samples.

Results

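The genes described here are the type I interferon-stimulated genes, a group whose mRNAs rise in a cell when interferon alpha or beta binds its surface receptor. They were taken from a list of 42 gene symbols and matched to the probe annotation of the array. Of the 42 listed genes, 38 had a probe listed under their symbol and 32 were measured, that is, had a probe detected above the negative controls (detection p under 0.05) on at least 3 of 6 arrays. These 32 genes stand among 9782 genes measured by the same rule. RNA came from whole thymus of 3 miR-181d Tg-38 mice and of 3 wild type mice, with 1 array per mouse and both groups on the C57BL/6 strain. The mice of the study were 5 to 8 weeks old per its methods. Tg-38 is a single transgenic line, in which a VA-hCD2 cassette that is active in thymocytes and peripheral T cells drives the primary transcript of miR-181d. The labels name no treatment for either group.

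In the type I pathway, the receptor chains Ifnar1 and Ifnar2 signal through the kinases Jak1 and Tyk2, and phosphorylated Stat2 and Irf9 work together in a complex called ISGF3. This complex binds the interferon-stimulated response element, a short repeat around the letters GAAA, in the promoters of its target genes, which encode RNA-binding, membrane and ubiquitin-like antiviral proteins. In the thymus, medullary epithelium and dendritic cells are known to produce type I interferon without infection, and late single-positive thymocytes to carry a response to it. Each value below is an average over all cells of the organ, so fewer cells of a type and less RNA per cell cannot be told apart.

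The microRNA that the transgene carries is printed first because it defines the Tg-38 group. Mature miR-181d-5p lies at chr8:84178759-84178781 on the minus strand of GRCm38.p6, and its seed, bases 2 to 8, is in capitals (sequence from RefSeq):
mmu-miR-181d-5p: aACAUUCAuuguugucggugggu
The other 5p members of the family, miR-181a, miR-181b and miR-181c, have the same seed in that table. The level of miR-181d itself was not measured here, since the array has no probe under its name.

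The promoters were searched for the 9 letters GAAANNGAA, the core of the response element, on either strand (TTCNNTTTC when read on the gene's own strand), in a window of 250 bases before to 50 bases after the transcript start, with overlapping matches counted. RefSeq promoter windows (GRCm38.p6) were at hand for 33 of the 42 genes, and 18 of the 33 (54.5%) held the core, against 2638 of 27025 genes of the whole table (9.76%). The 3 windows below, from 18 bases before the first match to 18 bases after the last, are shown because they cover the gene with the largest change and a pair of genes with the same core that did not pass the test; matches are in capitals, each sequence runs 5′ to 3′ on the strand of its gene:
Ifit3, chr19:34583356-34583453, plus strand: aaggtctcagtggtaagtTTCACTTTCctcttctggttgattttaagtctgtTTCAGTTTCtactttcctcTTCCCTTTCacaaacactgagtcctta
Isg15, chr4:156200858-156200914, minus strand: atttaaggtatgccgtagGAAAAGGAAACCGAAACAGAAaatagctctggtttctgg
Rsad2, chr12:26456545-26456589, minus strand: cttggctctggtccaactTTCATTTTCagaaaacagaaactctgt
Ifit3 and Isg15 held 3 matches each and Rsad2 held 1. A match is a description of these letters and shows no binding.

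The number of detected probes was similar across arrays, while the signal before normalization was mostly lower on the Tg-38 arrays. Between 17972 and 18464 probes were detected on the Tg-38 arrays, and between 17674 and 18526 on the wild type arrays. Before normalization the median signal was 123 to 129 on the Tg-38 arrays and 129 to 140.7 on the wild type arrays. The upper quartile was 190 to 211.4 on the Tg-38 arrays and 206.2 to 243 on the wild type arrays. Mean signals before normalization were 310.7 in Tg-38 and 312.3 in wild type for Stat2, and 868.2 and 501.3 for Ifit3. The size of a change below therefore depends on how the arrays were scaled, most of all where it is small. Signals were background-corrected, quantile-normalized and put on the log2 scale, and every level below is such a normalized log2 signal of 1 probe, the brightest tested probe of its gene. Differences are Tg-38 minus wild type, tested with the moderated two-sided test of limma over all 18352 probes kept, with p-values adjusted by Benjamini-Hochberg over these probes. T cell and cortical markers checked the tissue label. Cd3e, Ptcra and Rag1 were measured, whereas Foxn1 and Cd8a did not pass the detection filter and Lck had no listed probe.

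Most of the measured genes lay above 0 in Tg-38 thymus. Of the 32 genes, 28 had a log2 fold change above 0 (22 under median scaling of the arrays), against 52.9% of all genes measured. The median over the 32 genes was 0.30, with a range of -0.13 to 1.23, and the median over all 9782 genes was 0.02. Under median scaling, which moves the median of all probes to -0.14, the median of the 32 genes was 0.14, which is 0.28 above the median of all probes. A change of more than 1.2-fold upward was seen in 19 of the 32 genes (59.4%), compared with 13.98% of all genes, and none of the 32 was lower by that factor, compared with 9.73% of all genes. The 19 became 12 without background correction and with the processed values of the authors, and under median scaling 7 genes were higher and 2 (Trim25 and Sp100) lower by that factor. These counts describe the list and carry no test, because the list was drawn up with results of these data known.

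**Figure D1:**
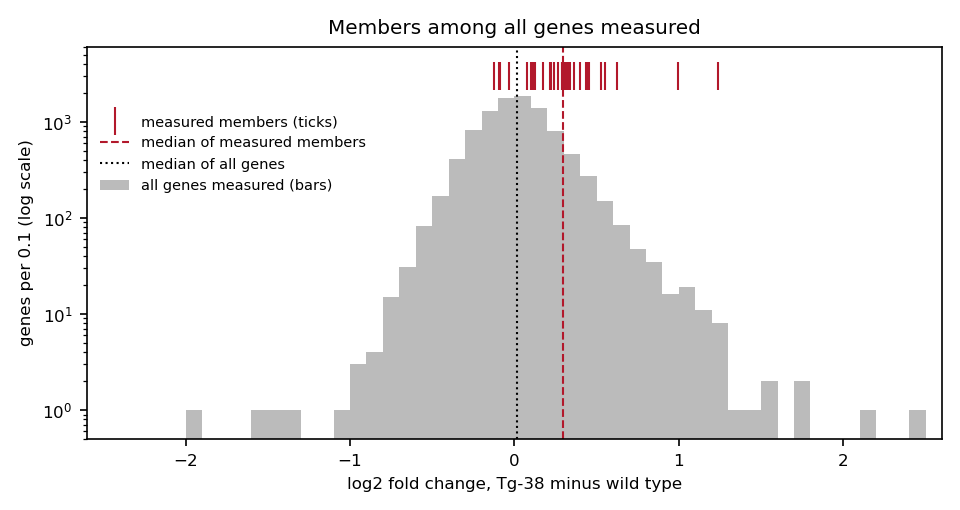
Log2 fold change (Tg-38 minus wild type, x axis) of all 9782 genes measured as grey bars of width 0.1, with the number of genes on a log axis, and of the 32 measured interferon-stimulated genes as red ticks. The dashed red line is the median of the 32 genes (0.30) and the dotted black line the median of all genes (0.02); the ticks run between -0.13 and 1.23.

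After adjustment over all probes, 2 of the 32 genes rose (Ifit3 and Oas2) and none fell. Among all genes measured, 1.05% passed as higher and 0.235% as lower. At the unadjusted p under 0.05 that the study's methods use, 15 of the 32 genes were higher and none lower, where 10.6% of all genes were higher and 6.94% lower. The 15 became 4 under median scaling and 10 without Tg-38 replicate 1. In 14 genes every Tg-38 array lay above every wild type array, and in none did every Tg-38 array lie below every wild type array; over all genes these shares were 14.2% and 10.5%. The 14 are the 15 genes without Irf9. All 32 brightest probes were detected on all 6 arrays, so none of these genes entered through 1 group alone.

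**Figure D2:**
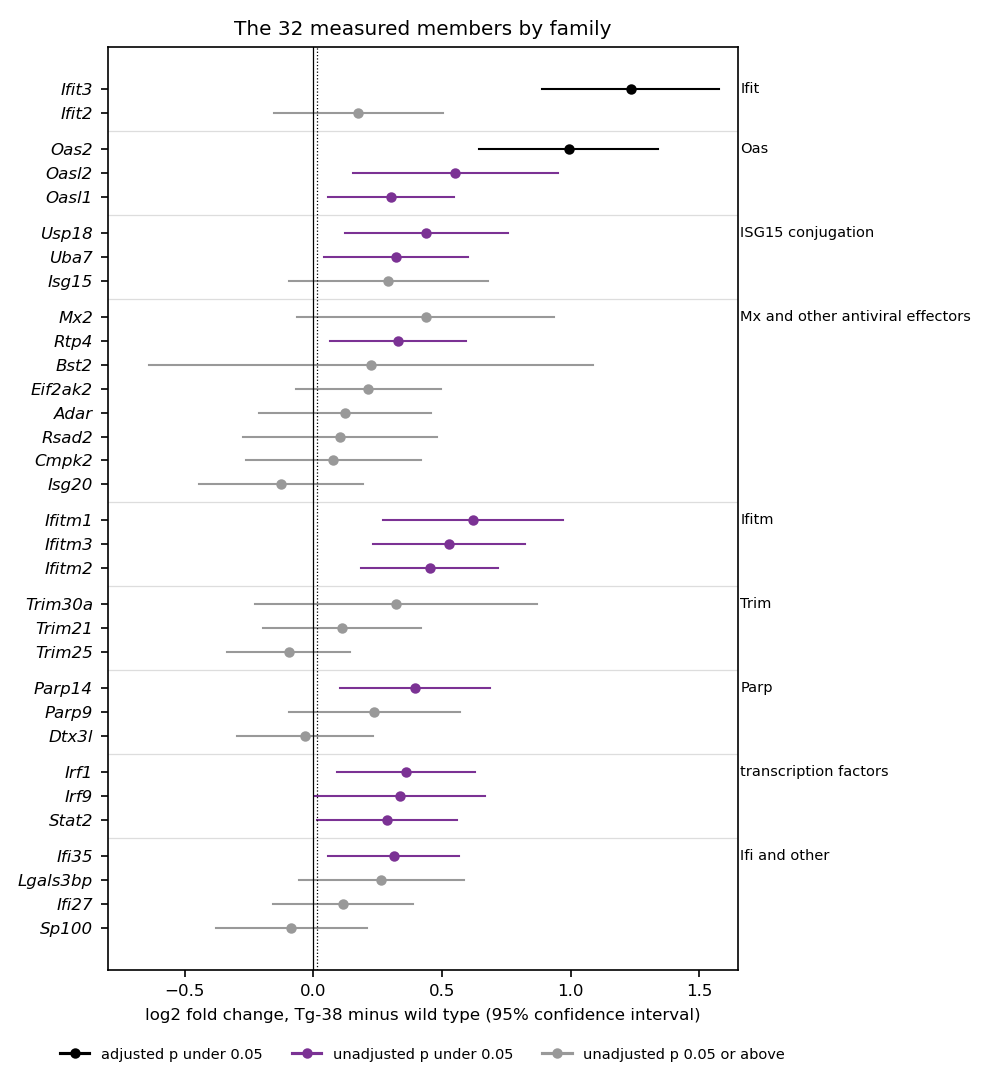
Log2 fold change (Tg-38 minus wild type, x axis) of each measured interferon-stimulated gene by family, with the 95% confidence interval of limma as a bar, and with the solid vertical line at 0 and the dotted one at the median of all genes (0.02). Ifit3 and Oas2, in black, pass the adjusted threshold, the other 13 genes at an unadjusted p under 0.05 are purple, and the intervals of the grey genes include 0.

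The Ifit proteins bind RNA and one another, Ifit1 being the one that recognises viral RNA without host cap methylation, and their genes lie side by side on chromosome 19. Ifit3 (chr19:34583119-34588982, GRCm38.p6) had log2 signals of 9.83, 9.54 and 9.74 in Tg-38 thymus, against 8.66, 8.57 and 8.17 in wild type thymus. The lowest Tg-38 array was well above the highest wild type array. The gene averaged 9.70 ± 0.15 in Tg-38 and 8.47 ± 0.26 in wild type (SD, n = 3 each) and rose 2.35-fold (log2 fold change 1.23, SE 0.15, limma adjusted p = 0.0134). The second Ifit3 probe, which is dimmer, gave 6.43, 6.56 and 6.20 in Tg-38 and 5.92, 5.12 and 4.99 in wild type (log2 fold change 1.05, adjusted p = 0.0715). The adjusted p of the brighter probe was 0.0716 without Tg-38 replicate 1 and 0.0808 without Tg-38 replicate 3, and it lay between 0.000204 and 0.159 over 16 alternatives, of which 12 kept the call. Its unadjusted p stayed between 4.22e-05 and 0.00016 over the 6 leave-outs.

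Ifit2, the neighbour that lies before Ifit3 on the chromosome (chr19:34550550-34576534), had 8.50, 8.51 and 8.35 in Tg-38 and 8.55, 8.25 and 8.03 in wild type. The groups overlapped, as wild type replicate 1 was above every Tg-38 array. Its log2 fold change was 0.18 (95% interval -0.15 to 0.50, adjusted p = 0.588), and its second probe gave 0.12. Leaving out wild type replicate 1 gave 0.31 (unadjusted p = 0.0493), leaving out wild type replicate 3 gave 0.05, and median scaling gave -0.0041. The change of Ifit3 exceeded that of Ifit2 by 1.06 on the log2 scale, with the array-wise differences of the groups apart. An exact two-sided permutation test of this difference gave p = 0.1, the smallest that 3 mice against 3 allow, and 0.15 after adjustment over the 3 pairs of neighbours compared, which were chosen after their values were seen. Ifit1, the third gene of the list in this cluster, was detected on no array.

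The Oas genes encode sensors of double-stranded RNA that activate RNase L through short oligoadenylates. Oasl1 and Oasl2 are relatives, of which Oasl1 restrains the translation of Irf7 in the mouse. Oas2 (chr5:120730333-120749886) had 8.67, 8.62 and 8.29 in Tg-38 thymus and 7.68, 7.65 and 7.27 in wild type thymus. Again no array of one group reached the other. Oas2 averaged 8.53 ± 0.21 in Tg-38 and 7.53 ± 0.23 in wild type (SD, n = 3 each) and rose 1.99-fold (log2 fold change 0.99, SE 0.15, adjusted p = 0.032). The call was lost in 5 of the 6 leave-outs: the adjusted p was 0.131, 0.0822 and 0.0808 without Tg-38 replicates 1, 2 and 3 and 0.0827 and 0.0987 without wild type replicates 1 and 3, whereas the unadjusted p did not exceed 0.0008 in any of the 6 leave-outs. Over all 16 alternatives the adjusted p of Oas2 lay between 0.00291 and 0.194.

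Oasl2 had 9.21, 8.91 and 9.30 in Tg-38 and 8.77, 8.77 and 8.22 in wild type. Wild type replicate 3 was the lowest of the 6, and the groups did not overlap (log2 fold change 0.55, SE 0.18, unadjusted p = 0.0122, adjusted p = 0.17). The other tested probes of Oasl2 had log2 fold changes of 0.54 and 0.36. Oasl1 lies next to Oasl2 on chromosome 5 and had 6.72, 6.70 and 6.89 in Tg-38 and 6.41, 6.52 and 6.47 in wild type (log2 fold change 0.30, unadjusted p = 0.0208, adjusted p = 0.208). Its dimmer probe was on the other side of 0, at -0.22 (unadjusted p = 0.152), so the direction of Oasl1 differs between its probes. Oas1a and Oas3 were detected on no array.

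Ifitm proteins are small membrane proteins that hinder the fusion of viruses with the cell, and Ifitm1, Ifitm2 and Ifitm3 lie in 1 cluster on chromosome 7 (140954837 to 141010744). All 3 were measured and were separated between the groups. Ifitm1 had 9.34, 8.86 and 9.38 in Tg-38 and 8.46, 8.61 and 8.64 in wild type (log2 fold change 0.62, SE 0.15, adjusted p = 0.0993). For Ifitm2 the values were 8.99, 8.92 and 9.04 in Tg-38 and 8.43, 8.46 and 8.72 in wild type (log2 fold change 0.45, SE 0.12, adjusted p = 0.113). Ifitm3 had 10.02, 9.92 and 10.11 in Tg-38 and 9.34, 9.72 and 9.41 in wild type (log2 fold change 0.53, SE 0.13, adjusted p = 0.0982). None passed the adjusted threshold, and their unadjusted p-values were 0.00302, 0.00407 and 0.00291. Each kept an unadjusted p under 0.05 without any 1 array, the largest being 0.0179, while under median scaling Ifitm2 did not (log2 fold change 0.27, unadjusted p = 0.0626). Without wild type replicate 2, Ifitm3 passed the adjusted threshold (adjusted p = 0.0472; 0.0227 to 0.265 over 16 alternatives). The second Ifitm1 probe had a log2 fold change of 0.29 with overlapping groups.

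**Figure D3:**
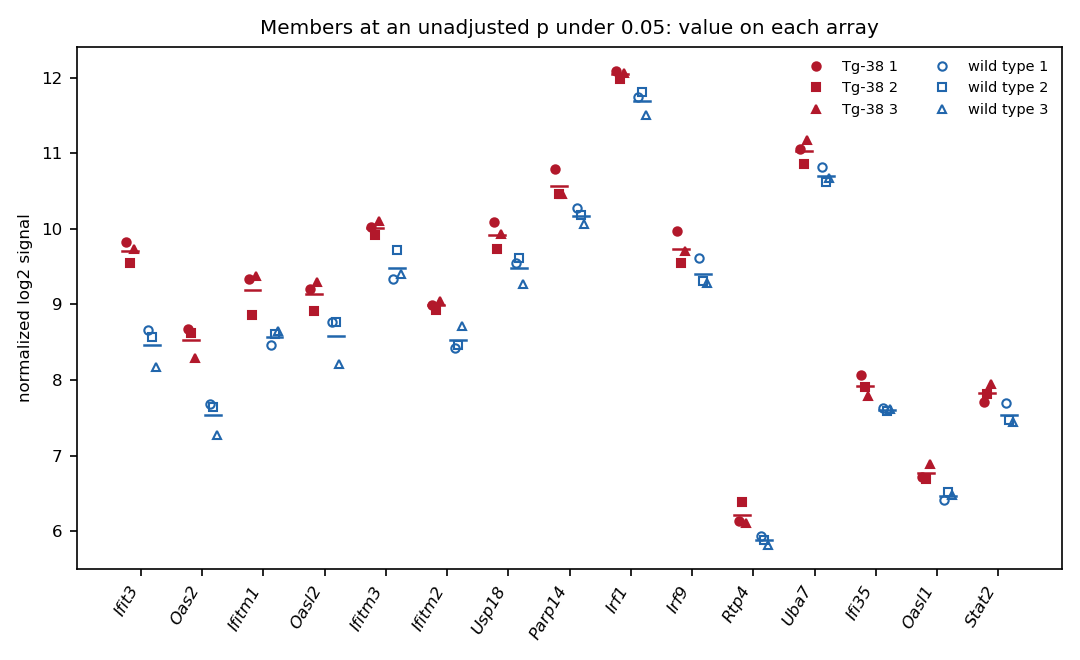
Normalized log2 signal (y axis) on each array for the 15 genes at an unadjusted p under 0.05, ordered by fold change, with Tg-38 as filled red and wild type as open blue symbols, circle, square and triangle for replicates 1, 2 and 3, and short lines at the group means. The groups are apart in every gene but Irf9, and the widest gap is that of Ifit3, at 9.54 to 9.83 in Tg-38 and 8.17 to 8.66 in wild type.

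Isg15 is a ubiquitin-like protein that is attached to other proteins upon interferon, Uba7 is the enzyme that activates it, and Usp18 removes it and also restrains the receptor Ifnar2. Usp18 had 10.10, 9.73 and 9.93 in Tg-38 thymus and 9.55, 9.61 and 9.27 in wild type thymus (log2 fold change 0.44, SE 0.14, unadjusted p = 0.0119, adjusted p = 0.17). Its second probe gave 0.46 with the groups apart as well. For Uba7 the signals were 11.05, 10.85 and 11.17 in Tg-38 and 10.82, 10.61 and 10.68 in wild type (log2 fold change 0.32, unadjusted p = 0.0294, adjusted p = 0.237). The lowest Tg-38 array was only just above the highest wild type array. Isg15 itself had 8.99, 8.52 and 8.59 in Tg-38 and 8.59, 8.53 and 8.11 in wild type, with overlapping groups (log2 fold change 0.29, 95% interval -0.10 to 0.68, adjusted p = 0.434). An increase of the size of that of Usp18 is within the interval of Isg15. The value of Isg15 was 0.15 without Tg-38 replicate 1, 0.14 without wild type replicate 3 and 0.11 under median scaling. Herc6, the ligase of this system in the mouse, was not analysed here, since no probe is listed under it.

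Of 10 listed genes for other antiviral effectors, 8 were measured, and 7 of the 8 lay above 0 with a median log2 fold change of 0.17. Rtp4, an interferon-induced inhibitor of flaviviruses, had 6.14, 6.39 and 6.11 in Tg-38 and 5.94, 5.89 and 5.82 in wild type (log2 fold change 0.33, unadjusted p = 0.0203, adjusted p = 0.206). It was the only gene of this group at an unadjusted p under 0.05. Mx2, a dynamin-like GTPase, had 7.39, 6.70 and 6.61 in Tg-38 and 6.64, 6.61 and 6.14 in wild type. Its log2 fold change of 0.44 (adjusted p = 0.36) was 0.19 without Tg-38 replicate 1, the highest of the 6 arrays, and 0.28 without wild type replicate 3, the lowest. Mx1, the gene's neighbour, was detected on 1 array only, of a Tg-38 mouse.

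Eif2ak2, the kinase PKR that halts translation on double-stranded RNA, had 9.44, 9.15 and 9.49 in Tg-38 and 9.20, 9.07 and 9.16 in wild type, with a log2 fold change of 0.21 (95% interval -0.07 to 0.49). Rsad2 (viperin) and Cmpk2 are neighbours on chromosome 12 and work on nucleotide pools. Their log2 fold changes were 0.10 (95% interval -0.28 to 0.48) and 0.08 (-0.26 to 0.42), and both changed sign under median scaling, to -0.07 and -0.06. Adar, an RNA-editing enzyme, had 5 tested probes with log2 fold changes of 0.06 to 0.29, and its brightest was at 0.12 (-0.06 under median scaling). Isg20, an exonuclease, was at -0.13 (95% interval -0.45 to 0.19).

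Bst2 (tetherin), which holds budding virus at the cell surface and also marks plasmacytoid dendritic cells, varied widely between mice of a group. It had 7.53, 7.97 and 8.52 in Tg-38 and 7.51, 8.70 and 7.14 in wild type. The highest and the lowest array were both wild type. The log2 fold change was 0.22 with a 95% interval of -0.64 to 1.09, so a difference of this size was not detectable.

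Trim proteins are ubiquitin ligases that act on sensors and on antibody-bound virus. Trim25, which acts on the sensor Rig-I, had 10.84, 10.78 and 10.66 in Tg-38 and 10.90, 10.84 and 10.83 in wild type (log2 fold change -0.10, 95% interval -0.33 to 0.14). Its values overlapped between the groups, and so did those of Trim21, at 0.11 (-0.08 under median scaling). Trim30a had 9.39, 8.38 and 9.03 in Tg-38 and 8.80, 8.72 and 8.31 in wild type, with a log2 fold change of 0.32 and a 95% interval of -0.23 to 0.87. Tg-38 replicate 2 was below 2 of the 3 wild type arrays, and the log2 fold change was 0.60 (unadjusted p = 0.0127) without it and 0.09 without Tg-38 replicate 1. With all 6 arrays no Trim gene was at an unadjusted p under 0.05.

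Parp14, Parp9 and Dtx3l lie within 1 stretch of chromosome 16 (35831892 to 35972621), where Dtx3l (35926515 to 35939027) and Parp9 (35938470 to 35972621) overlap at their ends. Parp9 and Dtx3l form a complex that joins ADP-ribosylation with ubiquitin transfer. Parp14 had 10.79, 10.46 and 10.46 in Tg-38 and 10.27, 10.18 and 10.06 in wild type (log2 fold change 0.40, SE 0.13, unadjusted p = 0.0133, adjusted p = 0.175), and its second probe gave 0.53. Dtx3l had 10.96, 10.91 and 10.79 in Tg-38 and 11.07, 10.82 and 10.87 in wild type. Its log2 fold change was -0.03 (95% interval -0.30 to 0.23), while Parp9 was at 0.24 (95% interval -0.10 to 0.57). The change of Parp14 exceeded that of Dtx3l by 0.43 (exact permutation p = 0.1, and 0.15 after adjustment over the 3 pairs). The change of Parp9 exceeded that of Dtx3l by 0.27 (exact permutation p = 0.2, and 0.2 after adjustment). These pairs too were chosen after their values were seen, and 0.1 is the smallest p that 3 mice against 3 allow. For these reasons the test cannot decide whether the neighbours differ in their change.

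The transcription factors of the list were all measured and all at an unadjusted p under 0.05, with a median log2 fold change of 0.34. Irf1 had 12.09, 11.99 and 12.06 in Tg-38 thymus and 11.75, 11.81 and 11.50 in wild type thymus (log2 fold change 0.36, SE 0.12, unadjusted p = 0.014, adjusted p = 0.179). It is induced by interferon alpha, beta and gamma and binds a related element. Another 3 Irf1 probes gave log2 fold changes of 0.45, 0.50 and 0.39 with the groups apart, and the fifth and dimmest probe gave -0.14 with overlapping groups. Irf9, the DNA-binding part of ISGF3, had 9.97, 9.55 and 9.70 in Tg-38 and 9.62, 9.31 and 9.28 in wild type (log2 fold change 0.34, unadjusted p = 0.0474, adjusted p = 0.288). Wild type replicate 1 was above Tg-38 replicate 2. Its dimmer probe separated the groups, with 8.37, 8.07 and 8.07 in Tg-38 and 7.88, 7.71 and 7.65 in wild type (log2 fold change 0.43). Stat2, the partner of Irf9 in ISGF3, had 7.71, 7.82 and 7.95 in Tg-38 and 7.70, 7.47 and 7.45 in wild type (log2 fold change 0.29, unadjusted p = 0.041, adjusted p = 0.272). Its lowest Tg-38 and highest wild type values were nearly equal. None of the 3 factors kept an unadjusted p under 0.05 under median scaling, where the log2 fold changes were 0.18 for Irf1, 0.15 for Irf9 and 0.13 for Stat2. Irf9 and Stat2 each lost it in 4 of the 6 leave-outs, with the largest p at 0.176 for Irf9 without Tg-38 replicate 1 and 0.136 for Stat2 without Tg-38 replicate 3.

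Among the remaining genes, Ifi35, a partner of Nmi in protein complexes, had 8.06, 7.92 and 7.79 in Tg-38 and 7.63, 7.59 and 7.61 in wild type. The wild type arrays lay close together (SD 0.02), below every Tg-38 array, and the log2 fold change was 0.31 (SE 0.11, unadjusted p = 0.0212, adjusted p = 0.208). Ifi27 had 12.30, 12.07 and 12.00 in Tg-38 and 12.06, 12.05 and 11.91 in wild type, with a log2 fold change of 0.12 (-0.06 under median scaling). Lgals3bp, a secreted glycoprotein, was at 0.26 (95% interval -0.06 to 0.58) and Sp100, a nuclear body protein, at -0.09, with all 3 of its tested probes below 0. Xaf1 and Ifi204 were detected on no array. Ddx60, Ifi44 and Ifi203 have no listed probe and were not analysed here.

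Within a gene, the probes mostly moved the same way. Of the 15 genes with more than 1 tested probe, 12 had all their probes on the same side of 0, and the exceptions were Oasl1, Irf1 and Trim21. Over the 56 tested probes of the 32 genes, 45 lay above 0, 23 were higher at an unadjusted p under 0.05 and none was lower. Among all 18352 probes tested, 48.7% lay above 0, and 3126 were at an unadjusted p under 0.05 in either direction. That number was not split by direction, so it is no like measure for the 23. A gene with several probes counts more than once in these probe counts. By brightest probe, 10.6% of all genes were higher and 6.94% lower at that p.

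Some arrays were high or low across many of the genes. When each gene was centred on its mean over the 6 arrays, the 32 genes averaged 0.27, 0.06 and 0.13 on Tg-38 arrays 1, 2 and 3 and -0.08, -0.11 and -0.27 on wild type arrays 1, 2 and 3. Tg-38 replicate 1 was the highest array in 17 of the 32 genes, and wild type replicate 3 was the lowest in 18. Of the 32 genes, 26 on Tg-38 replicate 1, 20 on Tg-38 replicate 2 and 18 on Tg-38 replicate 3 were above every wild type array. These counts, and the 17 and 18 before them, were made for the 32 genes only. Without the share over all genes they cannot set these genes apart. Without Tg-38 replicate 1 the median log2 fold change was 0.21 and 10 genes were at an unadjusted p under 0.05. Without wild type replicate 3 these values were 0.27 and 11. Over all 6 leave-outs, Ifit3, Oas2, Oasl2, Ifitm1, Ifitm2, Ifitm3 and Irf1 were the 7 genes that kept an unadjusted p under 0.05 throughout; under median scaling 4 genes did, namely Ifit3, Oas2, Ifitm1 and Ifitm3.

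**Figure D4:**
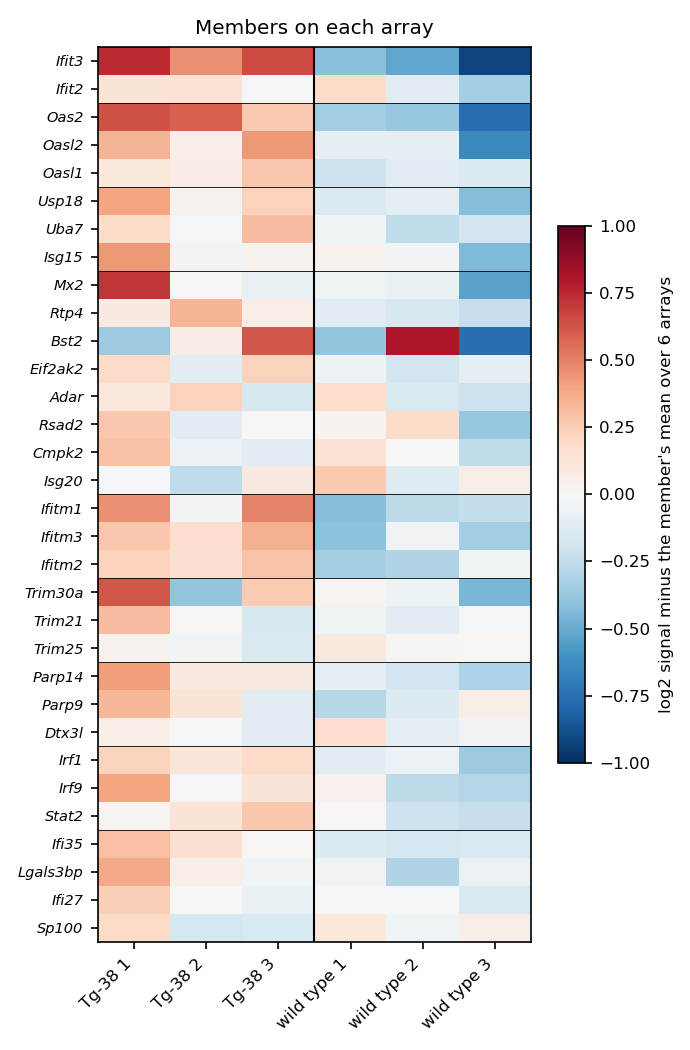
Normalized log2 signal minus the mean of the gene over the 6 arrays (colour scale, red above and blue below the mean), with 1 row per measured gene ordered by family and 1 column per array, Tg-38 on the left and wild type on the right. The average over the 32 genes ran between 0.06 and 0.27 on the Tg-38 arrays and between -0.27 and -0.08 on the wild type arrays.

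The measured genes were also described by whether their window held the GAAANNGAA core. The 12 measured genes with the core in their window had a median log2 fold change of 0.26, with 11 above 0, and the 13 without it a median of 0.30, with 10 above 0. Ifit3 and Isg15, whose windows are printed above with 3 matches each, had log2 fold changes of 1.23 and 0.29, and Rsad2 with 1 match had 0.10. No window was at hand for Oas2, Usp18, Mx2, Rtp4, Parp9, Parp14 and Ifi27 among the measured genes, so this is a description of the other 25.

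Genes of the pathway outside the list were read in the same way. Of 9 interferon genes, 8 had a listed probe and 1 was measured, Ifna1, at 0.14 with overlapping groups; Ifnb1, Ifna2, Ifna4 and Ifng did not pass the detection filter. Among 8 receptors and kinases 7 were measured, none passed the adjusted threshold, and their median was -0.04. Ifnar2 was at -0.04 (SE 0.11) and Ifnar1 did not pass the detection filter. Ifngr1, a chain of the receptor for interferon gamma, had a lower level in every Tg-38 array, at 10.80, 10.67 and 10.79 against 11.20, 11.25 and 11.41 in wild type (log2 fold change -0.54, unadjusted p = 0.00095, adjusted p = 0.0625).

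Irf7, the factor that amplifies the transcription of interferon alpha genes and is itself induced by ISGF3, had 7.57, 7.13 and 7.52 in Tg-38 and 6.92, 6.75 and 6.33 in wild type. Its groups were apart, and the log2 fold change of 0.74 had an adjusted p of 0.0914. Of 9 measured transcription factors outside the list 6 were above 0, with a median of 0.19, and Stat3 (-0.16), Irf2 (-0.01) and Rela (-0.02) were below. Nlrc5, the activator of MHC class I genes, rose (log2 fold change 0.80, adjusted p = 0.0442), and Irf7, Irf4 (0.43) and Irf5 (0.35) were at an unadjusted p under 0.05. Of 12 measured sensors and adaptors 11 were above 0. Cgas rose (log2 fold change 1.09, adjusted p = 0.00453), and Ikbke (0.51), Dhx58 (0.47), Sting1 (0.45) and Unc93b1 (0.32) were at an unadjusted p under 0.05.

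Negative regulators were mixed, with 5 of 8 above 0 and a median of 0.05; Samhd1, which depletes deoxynucleotides, was at 0.82 (adjusted p = 0.0601) and Cish at 0.37. Of 21 further interferon-induced genes 18 were above 0, with a median of 0.20, and 2 rose after adjustment. These were Cxcl9, a chemokine that depends mainly on interferon gamma, with 7.99, 7.59 and 8.04 in Tg-38 and 5.77, 6.32 and 6.26 in wild type (log2 fold change 1.76, adjusted p = 0.00571), and Slfn1, a Schlafen gene of T cells (0.84, adjusted p = 0.0279). Gbp2 (0.47), Gbp3 (0.47), B2m (0.41), Trim34a (0.35) and Tdrd7 (0.33) were at an unadjusted p under 0.05. None of the genes in these lists passed the adjusted threshold as lower.

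**Figure D5:**
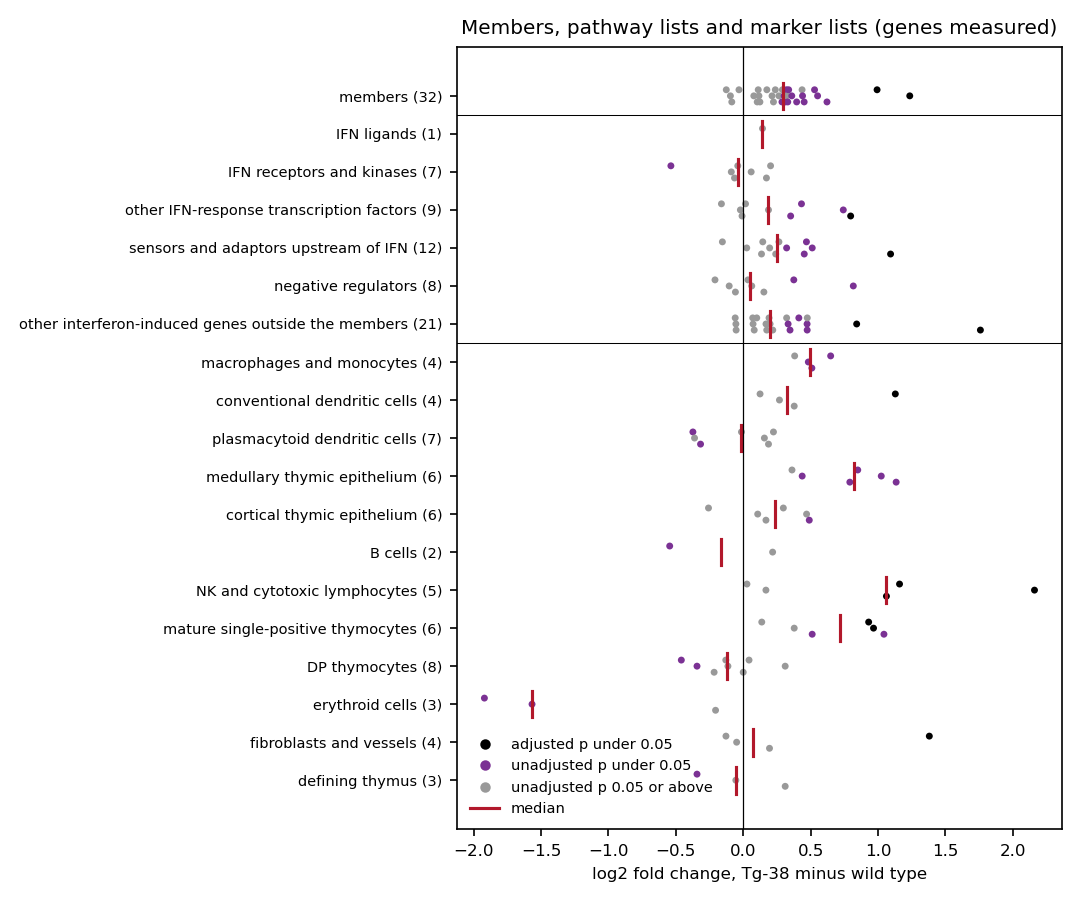
Log2 fold change (Tg-38 minus wild type, x axis) of every measured gene, 1 point each, in the list of interferon-stimulated genes (top row), in the pathway lists and in the cell type marker lists, with the number of genes measured in brackets and a red line at the median. Black points pass the adjusted threshold and purple ones an unadjusted p under 0.05; the interferon-stimulated genes have a median of 0.30, the medullary epithelium markers 0.82 and the erythroid markers -1.57.

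Markers of several cell types differed between the same mice, and the part of cell numbers in the values above was not tested. From counts of live cells the paper reports a lower thymus cellularity in mice of the Tg-38 line. From flow cytometry, with these counts for absolute numbers, it reports fewer double-positive thymocytes and a higher percentage of double-negative cells. It gives higher percentages but similar numbers of single-positive thymocytes, and similar numbers of cells carrying an NK marker. For medullary thymic epithelium 6 of 8 markers were measured, all above 0 and 5 at an unadjusted p under 0.05, and their summed signal was 2304 to 2687 in Tg-38 and 1295 to 1765 in wild type; Epcam and Krt5 did not pass the detection filter. For mature single-positive thymocytes 6 of 8 were measured, all above 0, with 2 that rose (Il7r and Itgb7) and a sum of 3859 to 5062 in Tg-38 and 2412 to 2770 in wild type. For NK and cytotoxic lymphocytes 5 of 9 were measured and 3 rose (Klrd1, Nkg7 and Ctsw), with a sum of 4847 to 6142 in Tg-38 and 2913 to 3436 in wild type. The groups overlapped in the other measured genes of this list, Klrb1c (log2 fold change 0.03) and Prf1 (0.17). Gzmb, Ncr1 and Eomes did not pass the filter there.

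Macrophage and monocyte markers, of which 4 of 10 were measured and all lay above 0, summed to 1671 to 1770 in Tg-38 and 984 to 1319 in wild type, while Cd14, Fcgr1 and Itgam were not detected often enough. Lyz2 (log2 signal 9.69 to 10.56) was the brightest of the 4 and weighed most in this sum. Conventional dendritic cell markers, with 4 of 9 measured, summed to 1349 to 1932 in Tg-38 and 1017 to 1429 in wild type, so the sums overlapped. Cd86 rose, while the groups overlapped in Batf3 (log2 fold change 0.12), Ccr7 (0.38) and H2-Aa (0.27). H2-Aa (log2 signal 9.18 to 9.93) was the brightest of the 4 and weighed most in this sum. Itgax, Xcr1, Clec9a, Flt3 and Zbtb46 did not pass the filter. Plasmacytoid dendritic cell markers (7 of 8 measured, 3 above 0, median log2 fold change -0.01) summed to 5193 to 5567 in Tg-38 and 6017 to 6527 in wild type, with Ly6d (-0.37) and Tcf4 (-0.32) at an unadjusted p under 0.05 and Siglech at -0.01. Ly6d (log2 signal 11.30 to 11.93) and Tcf4 (10.20 to 10.71) were also the brightest of the 7 and weighed most in this sum. Bst2, 1 of the 3 above 0, is also among the interferon-stimulated genes of the list. Markers of double-positive thymocytes (8 of 10 measured, 2 above 0, median log2 fold change -0.12) summed to 41052 to 43022 in Tg-38 and 46247 to 47587 in wild type; Cd8b1 (-0.13) made up 61.6% to 64.1% of this sum, and Cd4 (-0.46) and Rag1 (-0.34) were at an unadjusted p under 0.05. Erythroid markers (3 of 6 measured) summed to 3875 to 9495 in Tg-38 and 10995 to 25586 in wild type, and no gene of these last 3 lists passed the adjusted threshold. Cortical epithelium markers (6 of 8 measured, 5 above 0) summed to 1267 to 1481 in Tg-38 and 827 to 1369 in wild type. For B cells 2 of 7 markers were measured, Cd79b (log2 fold change -0.55, unadjusted p = 0.00384) and Ebf1 (0.22). Of 4 measured fibroblast and vessel markers 2 were above 0, and Acta2 rose (1.38, adjusted p = 0.0442). Whether the difference in Ifit3, Oas2 or the Ifitm genes lies within thymocytes or in 1 of the other cell types cannot be told apart in whole-organ RNA.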

How the data were processed

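Whole thymus RNA of 3 miR-181d Tg-38 and 3 wild type mice was hybridised to Illumina MouseWG-6 v2 arrays, 1 per mouse. The deposited scanner table holds average bead signals as linear intensity, read out by the authors with GenomeStudio and not normalized between arrays, and a detection p-value per probe and array against negative controls. The authors also deposited processed values, an intensity on a linear scale (array medians 1.73 to 2.03) from which the background had been removed by a method not given in the sources used here; these served as an alternative. Scanner signals were corrected for background, inferred from detection p-values, and brought to common quantiles on the log2 scale by the neqc function of limma (version 3.58.1, offset 16; R 4.3.3, statmod 1.5.0). The offset shrinks the change of dim probes. Probes with a detection p under 0.05 on 3 or more arrays were kept (18352 of 45281), and a model with 1 mean per group was fitted by lmFit and eBayes (4 residual and 4.93 prior degrees of freedom), two-sided, with Benjamini-Hochberg adjustment over all of them and a threshold of 0.05. The number of arrays limits the precision. Each gene is represented by its brightest tested probe, and the annotation of the platform lists 34885 probes under 1 gene, 18 under several and 10378 under none. Promoter and microRNA sequences are those of RefSeq for GRCm38.p6.

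The genes and lists were chosen with earlier results of these data known. Values on every array are given for each listed gene at an unadjusted p under 0.05 and for the gene with the largest signal of each family, together with genes singled out after their values were seen (Ifit2, Isg15, Mx2, Bst2, Trim30a); pathway genes are named at an unadjusted p under 0.05, and Ifnar1, Ifnar2 and Irf7 in any case; a further gene of this rule is not reported here. By the methods there is 1 array per mouse, and the labels do not say that equal replicate numbers pair the samples. The deviations of same-numbered arrays from their group means correlated at 0.03, -0.12 and -0.10, and those of other pairs at -0.12 to 0.19. Such correlations cannot exclude a shared litter or batch. Replicates of a group correlated at 0.987 to 0.992. Alternatives covered background correction, scaling, the detection filter, the authors' values, an intensity trend, array weights, a replicate block, the methods' t-test, the choice of probe and leaving out each array. The procedure was also run on simulated data with known changes. These had the same background on every array and no shift of signal between the groups, so they cannot test the choice of scaling. Figures were drawn with matplotlib 3.10.9 under Python 3.11.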

Additional observations from a re-analysis of the deposited data

How the results depend on the processing

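The direction of 21 of the 32 interferon-stimulated genes, Ifit3, Oas2 and the 3 Ifitm genes among them, was upward under all 16 alternatives run on single genes, and no listed gene was lower at an unadjusted p under 0.05 under any of them. The number of listed genes that passed as higher was 2, and it was 5 without background correction, 5 with the authors' processed values, 5 with an intensity trend in the prior variance, 1 under median scaling, 0 without a detection filter, 0 with the methods' t-test (12 at an unadjusted p under 0.05) and 0 to 3 when each array was left out. Averaging all tested probes of a gene gave 3. Over all probes, 202 passed, against 397, 445, 481, 220, 48 and 1 under the same settings in that order, and 20 to 273 when each array was left out. At an unadjusted p under 0.05 the listed genes numbered 15, with 4 under median scaling and 10 to 15 when each array was left out; their median log2 fold change was 0.30, with 0.14 under median scaling and 0.21 to 0.34 over the leave-outs. Median scaling turned the share of passing probes that were higher to 35.9%, against 72.8% after quantile normalization, with a median over all probes of -0.14. Without a detection filter 38 listed genes entered, and 16 were at an unadjusted p under 0.05.

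With the replicate number as a block, 2 listed genes passed, 15 were at an unadjusted p under 0.05, the median was 0.30, and 27 of all probes passed. The labels do not say that a replicate number marks a shared litter or batch.

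Under median scaling the log2 fold change was below 0 in Ifit2 (-0.0041), Rsad2 (-0.0729), Cmpk2 (-0.0560), Adar (-0.0634), Trim21 (-0.0825) and Ifi27 (-0.0567). Leaving out each array gave -0.0594 to 0.220 for Rsad2, -0.0463 to 0.168 for Cmpk2, -0.0970 to 0.681 for Bst2, -0.0150 to 0.218 for Trim21 and -0.0819 to 0.0455 for Dtx3l. Ifitm1 passed the adjusted threshold in 3, Ifitm2 in 2, Ifitm3 in 4 and Irf1 in 1 of 16 alternatives. The cause of these shifts was not tested. Dim genes were limited by signal over background, and 6 listed genes with a probe could not be compared for that reason.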
